A study of Mus musculus with 29 samples.

Results

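The 10 genes described here are markers of blood vessel endothelium in mouse mammary fat: Pecam1, Cdh5, Esam, Tie1, Tek, Kdr, Flt1, Vwf, Egfl7 and Emcn. They were chosen by name as known endothelial genes, though with earlier results of these data known. They make up 10 of the 30818 gene symbols in the deposited expression table. All 10 were measured in each of 29 RNA sequencing libraries. The libraries come from C57BL/6N mice of genotype wt. The Obese group (5 libraries) was made obese on a 60% high-fat diet, D12492, and stayed so. The LFD group (5 libraries) was made obese on the same diet and then brought down in weight by a low-fat diet eaten freely. The LFCR group (5 libraries), the MCR group and the ICR group had the same high-fat diet first. LFCR mice lost weight on a low-fat diet restricted by 30% in calories. The MCR group (4 libraries) lost weight on a Mediterranean-style diet with the same 30% restriction. The ICR group (5 libraries) lost weight under intermittent calorie restriction. The Control group (5 libraries) ate the control diet D12450J throughout. Mice of all 6 groups carried a tumor: E0771 mouse mammary cancer cells were injected into mammary fat pad 4 in week 25, and the opposite pad, number 9, was sequenced at the end of tumor growth. Sample titles carry the word tumor and a field names the E0771 line, but the tissue is given as normal mammary tissue. The sources used here state neither sex nor age.

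Endothelial cells line every blood and lymphatic vessel, hold to each other through junction proteins, and read growth signals through receptor tyrosine kinases of the VEGF and angiopoietin families. VEGF acting on Kdr drives endothelial division and sprouting, while Flt1 binds VEGF tightly and signals weakly. Angiopoietin 1 activates Tek and steadies vessels, angiopoietin 2 acts on the same receptor depending on context, and Tie1 is its partner receptor. White fat is densely supplied with capillaries, and its vessels are remodelled as fat expands and shrinks. The mouse inguinal fat pad can also hold a lymph node, which has blood vessels of its own, among them high endothelial venules, the post-capillary vessels through which lymphocytes enter.

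The deposited values are log2 expression values on a variance-stabilised scale, from which each library's normalized counts, and whole read counts, could be recovered exactly. Levels below are normalized counts, which are read counts scaled for sequencing depth. Differences are in log2 units of the deposited values, with the standard error and the adjusted p of limma, a linear model fitted across 19387 genes, at a threshold of 0.05. Libraries held 16403903 to 49026986 reads in genes (median 37270234). The least covered gene of the 10 had 299 reads in its lowest library, so counting error is small beside the spread between libraries. Nothing in the sources beyond sample titles says how the libraries relate to single mice, so a p-value here reflects only how far libraries of a group differ, which may in part be technical. In whole tissue, fewer endothelial cells and less RNA per endothelial cell cannot be told apart.

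Expressed per kilobase of exon and averaged over all libraries, Cdh5 was the most abundant member with 1969 normalized counts per kilobase, and Pecam1 followed with 1519. Esam (697), Kdr (635) and Egfl7 (622) formed a middle group on this scale. Tek (443), Tie1 (381), Flt1 (332) and Vwf (240.0) were lower, and Emcn was lowest with 162 normalized counts per kilobase. All 10 are protein-coding genes, placed here in GRCm38 from the GENCODE annotation. Pecam1 lies at chr11:106654217-106750628 (− strand), Cdh5 at chr8:104101625-104144511 (+ strand) and Esam at chr9:37528078-37538319 (+ strand). Tie1 lies at chr4:118471191-118490061 (− strand) and Tek at chr4:94739289-94874976 (+ strand). Kdr lies at chr5:75932827-75978458 (− strand) and Flt1 at chr5:147561604-147726011 (− strand). Vwf lies at chr6:125546774-125686679 (+ strand), Egfl7 at chr2:26580014-26593120 (+ strand) and Emcn at chr3:137341067-137432185 (+ strand). Exons of Egfl7 overlap those of Agpat2 and Mir126b on the other strand and of Gm20532 and Mir126a on the same strand. Whether counting used strand is not given in the sources used here, so part of the Egfl7 count may belong to a neighbour. None of the other 9 has an overlapping exon in this annotation.

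The 4 vascular receptors, Tie1, Tek, Kdr and Flt1, are compared in pairs below, within the angiopoietin and the VEGF branch. The windows around their starts are shown for that reason. Each window runs from 250 bases before to 50 bases after a RefSeq gene start in GRCm38.p6; RefSeq windows were at hand for 6 of the 10 genes. The Tie1 window is chr4:118489800-118490099 (− strand), Tek chr4:94739039-94739338 (+ strand), Kdr chr5:75978406-75978705 (− strand) and Flt1 chr5:147725962-147726261 (− strand). All are printed 5′ to 3′ along the gene. Capitals mark GGAA, or TTCC on the other strand, the core letters bound by ETS factors such as Erg and Fli1.
Tie1: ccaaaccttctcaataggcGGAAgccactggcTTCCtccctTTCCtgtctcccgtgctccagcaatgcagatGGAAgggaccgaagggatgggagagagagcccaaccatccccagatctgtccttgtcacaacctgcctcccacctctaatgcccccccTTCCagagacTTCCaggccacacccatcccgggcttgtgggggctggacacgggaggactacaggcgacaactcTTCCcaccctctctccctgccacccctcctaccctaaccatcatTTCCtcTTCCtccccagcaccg
Tek: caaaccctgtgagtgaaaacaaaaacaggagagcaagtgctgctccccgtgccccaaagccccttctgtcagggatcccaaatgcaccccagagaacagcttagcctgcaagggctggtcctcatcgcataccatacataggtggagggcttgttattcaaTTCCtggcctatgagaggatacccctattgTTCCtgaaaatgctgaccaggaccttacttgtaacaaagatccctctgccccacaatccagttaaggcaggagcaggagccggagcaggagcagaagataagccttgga
Kdr: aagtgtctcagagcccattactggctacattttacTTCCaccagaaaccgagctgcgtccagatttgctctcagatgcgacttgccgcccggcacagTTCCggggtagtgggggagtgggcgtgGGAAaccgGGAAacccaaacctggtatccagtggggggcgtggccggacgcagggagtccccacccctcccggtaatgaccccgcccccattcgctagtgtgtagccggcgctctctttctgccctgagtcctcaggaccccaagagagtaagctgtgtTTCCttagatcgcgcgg
Flt1: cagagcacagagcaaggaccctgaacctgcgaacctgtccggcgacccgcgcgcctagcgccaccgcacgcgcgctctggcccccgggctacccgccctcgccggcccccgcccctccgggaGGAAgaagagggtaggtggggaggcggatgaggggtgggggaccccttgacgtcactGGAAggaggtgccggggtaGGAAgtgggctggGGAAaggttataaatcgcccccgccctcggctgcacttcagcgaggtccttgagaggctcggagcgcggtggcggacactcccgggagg
The Tie1 window holds the core 9 times, Kdr 5 times, Flt1 4 times and Tek 2 times. Of 32851 such windows of 27025 mouse genes, 96% hold the core at least once, the median count is 3, and 46.3% hold it 4 or more times, so the counts of Kdr, Flt1 and Tek are ordinary ones. CAGGAA, a longer form that contains GGAA, occurs 2 times in the Tek window and 1 time in the Tie1 window, against a share of 30.6% of all windows with at least 1. GATAAG, the GATA motif, is found 1 time in the Tek window (7.44% of all windows), and TATAAA, the TATA box, 1 time in the Flt1 window (13.6%). Both strands were searched for each motif. These are letter matches and not measured binding sites.

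Before the groups were compared, libraries were checked for lymph node RNA, because 8 of the 29 stand apart. The mean log2 level of 12 B cell genes was 10.0 to 12.6 in 21 libraries and 5.51 to 6.51 in the other 8, with none between. These 8 are MCR 1, 3 and 4, Obese 1 and 5, LFCR 1 and 3, and LFD 1. That leaves 3 of 5 Obese, 4 of 5 LFD, 3 of 5 LFCR, 1 of 4 MCR, 5 of 5 ICR and 5 of 5 Control libraries with lymph node RNA. Glycam1, a mucin made by high endothelial venules (and, in lactation, by mammary epithelium), had 2982 to 20616 normalized counts in the 21 libraries and 1.52 to 96.4 in the 8. Chst4, which sulfates the same mucins, had 49.7 to 260.4 in the 21 and 0 to 1.34 in the 8. Both genes gave the same split. Madcam1, another venule gene, overlapped, with 18.0 to 125 normalized counts in the 21 and 1.34 to 20.4 in the 8. Lymph node content therefore differs between the groups, and the results below are also given with it taken into account where that changed them. Among the 21 libraries Glycam1 was 6241 to 8892.5 in Obese, 6862 to 11157 in LFD and 3678 to 6003 in LFCR. It was 11461 in the MCR library, 2982 to 8430 in ICR and 9330 to 20616 in Control. Leaving out the 8 libraries therefore does not make lymph node content equal between groups.

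With group held constant, 7 of the 10 members fell in libraries that contain lymph node, and none rose (limma, a 2-level lymph node term; of all tested genes 49.6% passed, 24.7% lower and 24.9% higher). Tek differed by -0.81 ± 0.09 (adjusted p = 1.35e-07), Cdh5 by -0.74 ± 0.08 (adjusted p = 8.4e-08) and Flt1 by -0.73 ± 0.10 (adjusted p = 2.55e-06). Kdr (-0.59 ± 0.09), Emcn (-0.53 ± 0.10), Esam (-0.38 ± 0.13) and Vwf (-0.36 ± 0.11) were also lower. The 3 that did not pass were Tie1 at -0.24 ± 0.11 (adjusted p = 0.0905), Egfl7 at -0.07 ± 0.13 (adjusted p = 0.693) and Pecam1 at -0.03 ± 0.08 (adjusted p = 0.757). The members' median was -0.46, against -0.04 for all genes. Leaving out 1 library changed 3 of these calls: Esam did not pass without Obese 1 (adjusted p = 0.0522) or MCR 2 (0.136), Vwf did not pass without MCR 2 (0.0719), and Tie1 passed without LFD 1 (0.0134) or LFCR 1 (0.00643).

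**Figure D1:**
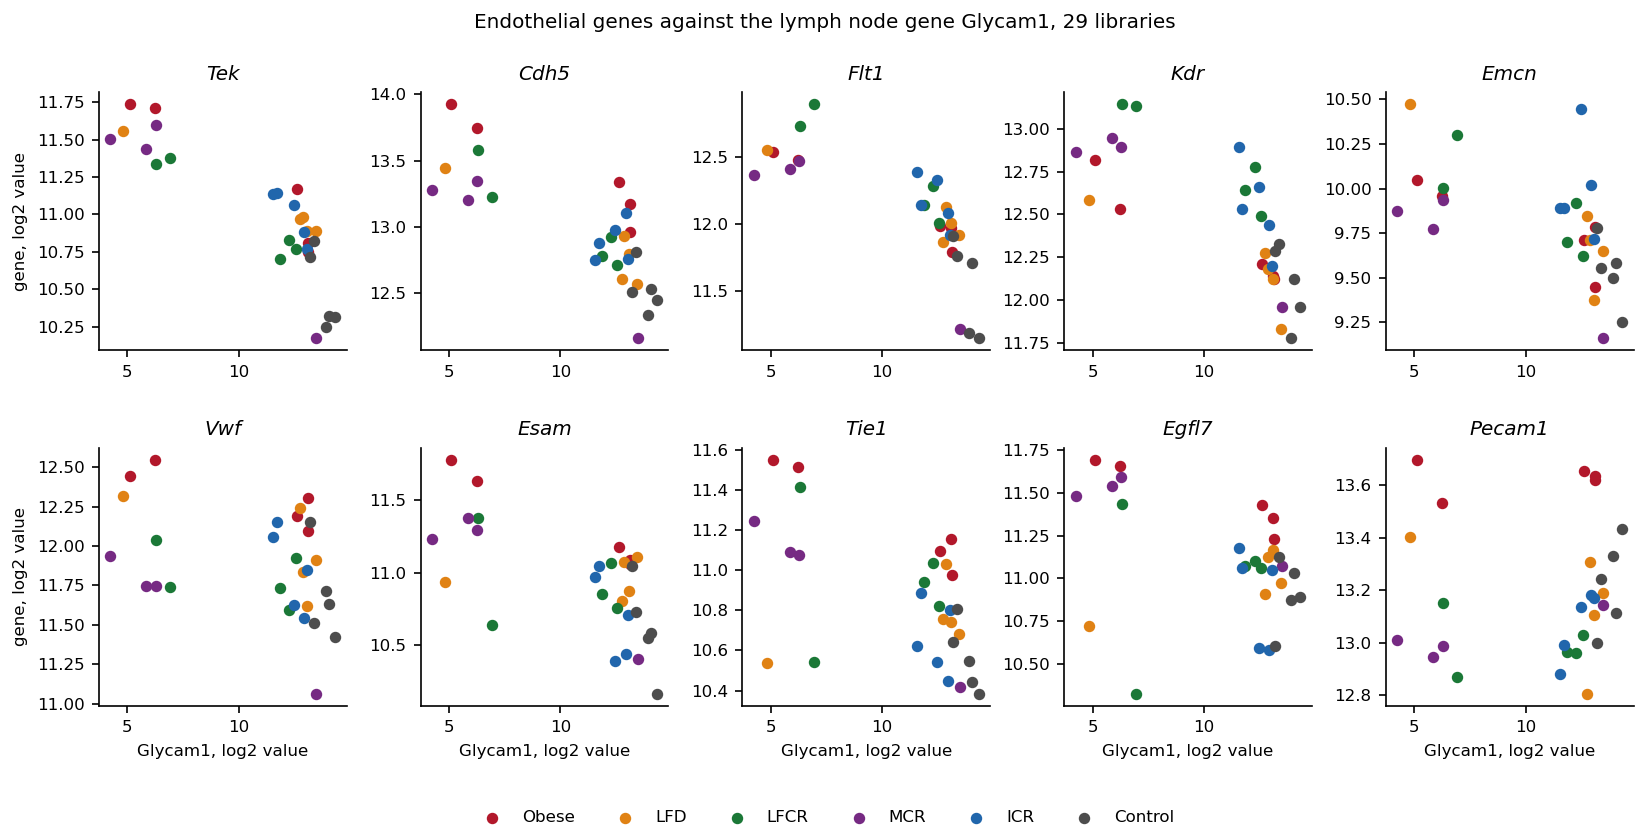
Deposited log2 value of each of the 10 genes (vertical axis) against that of Glycam1 (horizontal axis) in the 29 libraries; each point is a library, coloured by group. The 21 libraries with lymph node lie to the right and the 8 without it to the left; Tek is at 10.17 to 11.17 in the 21 and 11.34 to 11.74 in the 8, while the ranges of Pecam1 overlap.

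Pecam1 encodes CD31, an adhesion protein of endothelial junctions that leukocytes and platelets also carry. Obese libraries 1 to 5 had 13249, 12875, 12541, 12698 and 11818 normalized counts of it, against 10269, 11033, 9655, 8154 and 8824 in Control libraries 1 to 5. Every Obese library was above every Control library, and above every library of the 4 diet groups. Counts in the diet groups were 7130.1 to 10802 in LFD, 7458 to 9067 in LFCR, 7859 to 9027 in MCR and 7513 to 9265 in ICR libraries. Pecam1 was 1.32-fold higher in Obese than in Control fat pads, a log2 difference of 0.40 ± 0.10 (adjusted p = 0.00818). Each diet group was lower than Obese, by -0.47 ± 0.10 (adjusted p = 0.00631) in LFD, -0.63 ± 0.10 (adjusted p = 6.32e-05) in LFCR, -0.61 ± 0.10 (adjusted p = 0.000493) in MCR and -0.56 ± 0.10 (adjusted p = 0.000749) in ICR. It is the one member that passed in all 5 of these comparisons, and it passed in every fit that left out a single library. Leaving out all 8 libraries without lymph node gave 0.41 (adjusted p = 0.0504) for Obese against Control, which narrowly missed the threshold. The same difference did not pass after quantile normalization (0.25), with luminal epithelial genes as a covariate (0.33) or with red blood cell genes as a covariate (0.47).

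Cdh5, or VE-cadherin, is the adhesion protein of endothelial adherens junctions. Its normalized counts were 15535, 10311, 9215, 7937 and 13690.3 in Obese libraries 1 to 5, against 5137, 5574, 7158, 5809 and 5891 in Control libraries. The groups did not overlap, and the 2 highest Obese libraries, 1 and 5, are those without lymph node. Cdh5 was 1.87-fold higher in Obese fat, the largest difference of the 10 in log2 units, 0.90 ± 0.21 (adjusted p = 0.00764), and passed in each fit that left out 1 library. Diet libraries spread widely, with 11108, 7805, 6066, 6209.8 and 7077 in LFD, 9572, 7733, 12199, 7022 and 6676 in LFCR, 9397, 4550.0, 10372 and 9884 in MCR and 7512, 6858, 8029, 8788 and 6887 in ICR. None of the 4 diets differed from Obese at the threshold; the differences were -0.56, -0.38, -0.43 and -0.53 in LFD, LFCR, MCR and ICR, with adjusted p of 0.126, 0.22, 0.228 and 0.121. The high libraries of LFD and LFCR and the 3 high ones of MCR hold no lymph node. With the B cell level as a covariate all 4 diets were lower than Obese, by -0.49 (adjusted p = 0.00515), -0.46 (0.00231), -0.72 (0.000168) and -0.37 (0.0186). In the fit of libraries with lymph node alone, Cdh5 did not pass in LFD (-0.43, adjusted p = 0.0821), LFCR (-0.35, 0.0733) or ICR (-0.26, 0.139), and passed in MCR, which has 1 library there.

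Esam is an adhesion protein of endothelial tight junctions, found on platelets as well. Obese libraries had 3490.5, 2285, 2153, 2110.2 and 3146 normalized counts, against 1471, 1120.1, 1673, 2090.5 and 1506 in Control libraries. The lowest Obese library lay just above the highest Control library. The difference was 0.73 ± 0.19 (adjusted p = 0.0128), and it did not pass without Obese 1 (adjusted p = 0.0587). Counts of Esam were 1759 to 2179 in LFD, 1566 to 2631 in LFCR, 1330.0 to 2633 in MCR and 1317 to 2084 in ICR libraries. Every ICR library was below every Obese library, at -0.64 ± 0.19 (adjusted p = 0.0338); that call was lost without any 1 of Obese 1 (adjusted p = 0.109), Obese 5 (0.0905), ICR 3 (0.0917), ICR 4 (0.0977) or ICR 5 (0.0526). The other 3 diets did not pass, with differences of -0.39 in LFD, -0.41 in LFCR and -0.27 in MCR.

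Tie1 and Tek are the receptor tyrosine kinases of the angiopoietin system, of which Tek binds the ligands. Tie1 had 2972, 2163, 2256, 1985 and 2897 normalized counts in Obese libraries, against 1469, 1309, 1767, 1571 and 1365 in Control libraries. No Obese library reached down to the Control range. The difference, 0.69 ± 0.15 (adjusted p = 0.00508), had the smallest adjusted p among the 10 genes and held in each fit that left out 1 library. Counts were 1461, 2065, 1617, 1705 and 1686 in LFD, 1463, 2073, 2704, 1936 and 1779.8 in LFCR, 2151, 1343, 2134 and 2399.9 in MCR and 1864, 1547, 1465, 1370.3 and 1759.5 in ICR libraries. All 5 ICR libraries were below all Obese libraries, at -0.60 ± 0.15 (adjusted p = 0.0145). That call was lost without Obese 1 (adjusted p = 0.052). LFD missed the threshold at -0.51 ± 0.15 (adjusted p = 0.0503) and passed without Obese 4 (adjusted p = 0.0309) or LFD 2 (0.0269). The differences in LFCR (-0.31) and MCR (-0.30) did not pass.

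Tek had 3385, 2276, 1765, 1696 and 3325 normalized counts in Obese libraries, against 1189.7, 1246, 1787, 1654 and 1255 in Control libraries. The groups overlapped, and the 2 highest Tek libraries of all 29 were Obese 1 and 5, which hold no lymph node. Tek was higher in Obese fat by 0.75 ± 0.23 (adjusted p = 0.0346). This call did not hold without Obese 1 (adjusted p = 0.128), Obese 5 (0.123), Control 1 (0.0936), Control 2 (0.0686) or Control 5 (0.0812). Among libraries with lymph node the difference was 0.42 (adjusted p = 0.0834). Diet libraries had 2989, 1993, 1869, 1980.4 and 1868 in LFD, 2626, 1794, 2560.4, 1637 and 1722 in LFCR, 2742, 1127, 3076 and 2879 in MCR and 2229.8, 2229, 2111, 1859.5 and 1719 in ICR. None of the 4 diets differed from Obese at the threshold, with values between -0.24 (ICR) and -0.06 (MCR). LFD libraries all lay above the Control libraries, by 0.57 ± 0.23 (adjusted p = 0.394), which did not pass. MCR 2, the MCR library with lymph node, had the fewest Tek counts of all 29.

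Kdr is VEGF receptor 2, the main signalling receptor for VEGF in endothelium. It had 7196, 4719.5, 4479, 4429 and 5893 normalized counts in Obese libraries, against 3479, 3955, 5121, 4963 and 4429 in Control libraries, and these ranges overlapped. The difference between Obese and Control was 0.27 ± 0.19 (adjusted p = 0.331). Counts in the diet groups were 6107, 4622, 3615, 4925 and 4438 in LFD, 8953, 7004, 9029.5, 6379 and 5719 in LFCR, 7860.2, 3959, 7569 and 7433 in MCR and 5883, 7598, 6434, 5531 and 4682 in ICR. Every LFCR library was above every Control library. Kdr was 1.67-fold higher in LFCR than in Control, at 0.74 ± 0.19 (adjusted p = 0.00518), and this held in all 10 fits that left out a library of either group. MCR was higher than Control by 0.57 ± 0.20 (adjusted p = 0.0359). Against Obese, LFCR stood at 0.47 ± 0.19 (adjusted p = 0.0739), the highest of the 4 diets; it passed without Obese 1 (adjusted p = 0.0308) or LFCR 5 (0.0408). Among libraries with lymph node that difference was 0.48 (adjusted p = 0.0469). Glycam1 was lower in those LFCR libraries, 3678 to 6003, than in the Obese ones, 6241 to 8892.5, so lymph node content was not equal there.

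Flt1, VEGF receptor 1, binds VEGF and limits how much of it reaches Kdr. Its normalized counts were 5932, 4018, 3981, 3508 and 5674 in Obese libraries, against 2296, 2233, 3432, 3828 and 3316 in Control libraries. The ranges overlapped, and the difference of 0.61 ± 0.22 (adjusted p = 0.0692) did not pass, though it did without Obese 4 (adjusted p = 0.0407) or Control 4 (0.0477). Flt1 counts were 5977, 4456, 3836, 3699 and 4097 in LFD, 7611, 4956, 6780.1, 4502 and 4092 in LFCR, 5425, 2352, 5640.4 and 5264 in MCR and 4487, 5348, 5117, 4306 and 3847 in ICR. All LFCR and all ICR libraries were above all Control libraries. The LFCR difference from Control was 0.87 ± 0.22 (adjusted p = 0.00557), 1.83-fold, and held without any 1 library of either group, while the ICR difference was 0.63 ± 0.22 (adjusted p = 0.0924). No diet differed from Obese, with log2 values from -0.06 (LFD) to 0.26 (LFCR).

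Vwf encodes von Willebrand factor, the clotting glycoprotein that endothelium stores and releases. Obese libraries had 5540.2, 4654, 4352, 5039.7 and 5959 normalized counts, against 3334, 2718, 2896, 4526 and 3147 in Control libraries. Control 4 lay inside the Obese range and the other 4 Control libraries lay below it. Vwf was higher in Obese by 0.63 ± 0.16 (adjusted p = 0.0132), with the call lost without Obese 5 (adjusted p = 0.0502). Counts were 3121 to 5074 in LFD, 3063 to 4179 in LFCR, 2111 to 3900.3 in MCR and 2961 to 4525 in ICR libraries. Every LFCR and MCR library was below every Obese library. LFCR was lower than Obese by -0.51 ± 0.16 (adjusted p = 0.0266), and the call was lost without any 1 of Obese 1 (adjusted p = 0.0556), Obese 5 (0.0673), LFCR 1 (0.0527), LFCR 2 (0.0737) or LFCR 4 (0.0514). MCR was lower by -0.69 ± 0.17 (adjusted p = 0.00966). ICR (-0.47) and LFD (-0.33) did not pass.

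Egfl7 is a small protein secreted by endothelium into the vessel matrix, and its gene hosts miR-126. It had 3289, 2729, 2588, 2379 and 3207 normalized counts in Obese libraries, against 1849, 1872, 2209, 1527 and 2062 in Control libraries, with no overlap. The difference was 0.57 ± 0.16 (adjusted p = 0.0219); it was lost without Obese 1 (adjusted p = 0.0783), Obese 5 (0.0717), Control 1 (0.0524) or Control 4 (0.0542). LFD and ICR libraries, at 1658 to 2266 and 1501 to 2287, were all below the Obese ones, and LFCR libraries had 1254 to 2739. MCR libraries, at 2955, 2122, 3061 and 2832, were in the Obese range in 3 of 4. LFCR was lower than Obese by -0.48 ± 0.16 (adjusted p = 0.0371) and ICR by -0.58 ± 0.16 (adjusted p = 0.0232). The LFCR call was lost without Obese 1 (adjusted p = 0.0874), Obese 2 (0.0594), Obese 5 (0.0828) or LFCR 1 (0.144), and the ICR call without Obese 1 (0.0684), Obese 5 (0.0622), ICR 3 (0.0685) or ICR 4 (0.0791). LFD stood at -0.50 ± 0.16 (adjusted p = 0.0682) and passed without Obese 4 (adjusted p = 0.0488), while MCR stood at -0.05.

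Emcn, endomucin, is a sialomucin on the surface of capillary and venous endothelium. It had the smallest difference of the 10 between Obese and Control, with 1033, 811, 670.4, 855 and 969 normalized counts in Obese libraries against 697, 583, 725, 852 and 741 in Control libraries, a difference of 0.26 ± 0.18 (adjusted p = 0.341). The diet groups ranged over 636 to 1395 in LFD, 759.9 to 1234 in LFCR, 545 to 953 in MCR and 814 to 1365 in ICR. ICR had the highest mean, at 0.46 against Control (adjusted p = 0.129). None of the 9 comparisons with Obese or Control passed for Emcn.

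**Figure D2:**
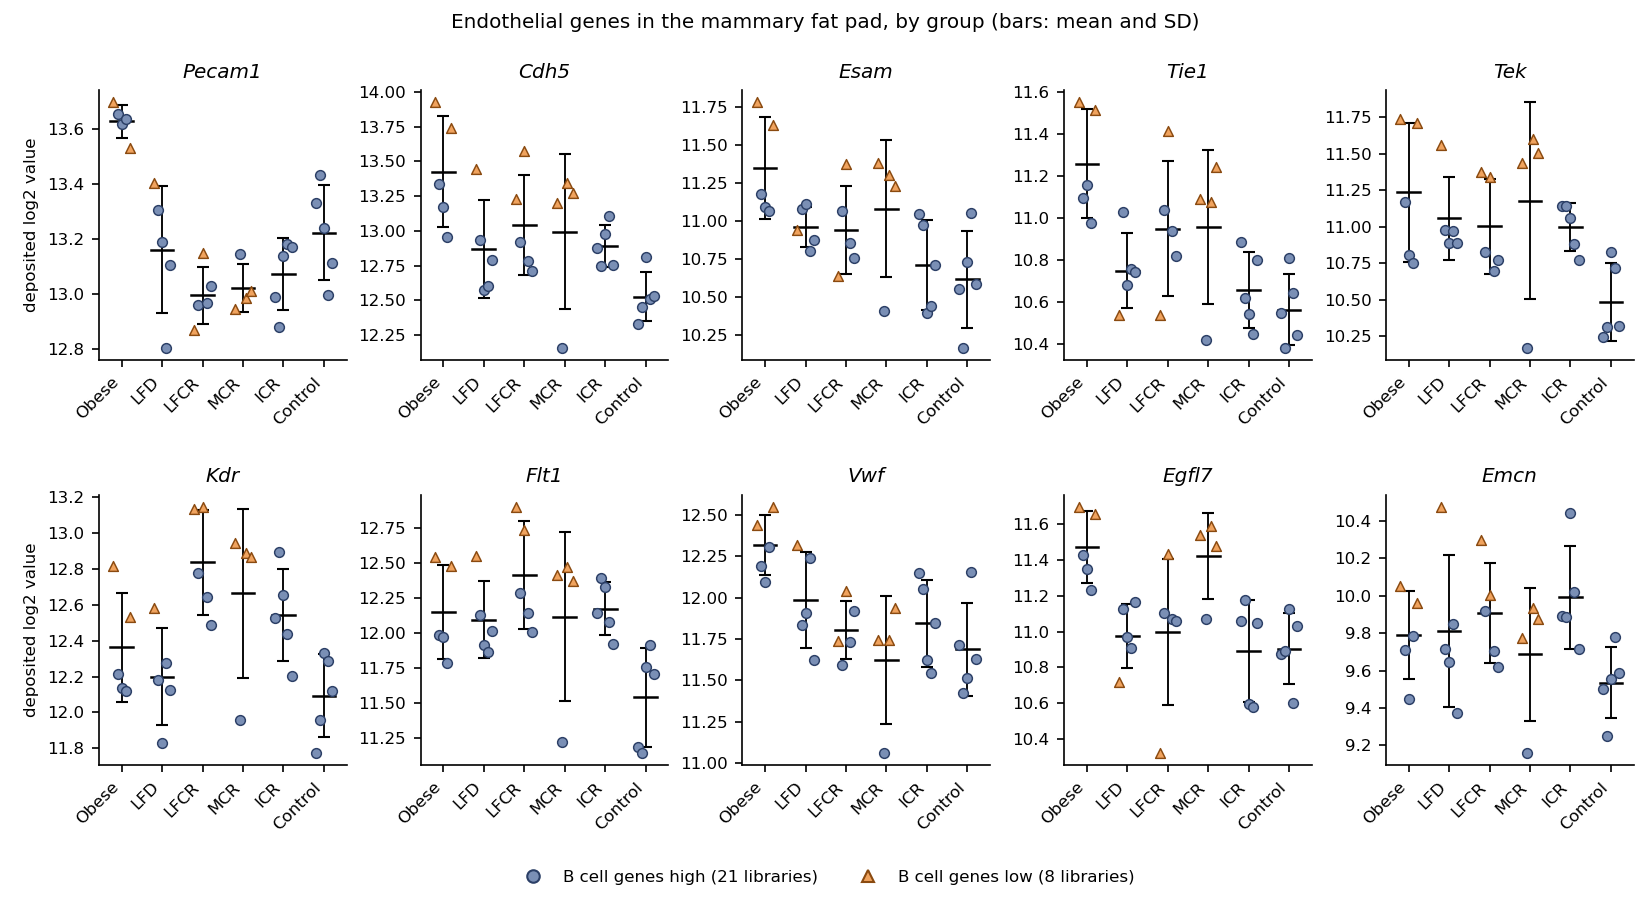
Deposited log2 values of the 10 genes in each library, by group from Obese on the left through LFD, LFCR, MCR and ICR to Control on the right; horizontal lines and error bars are group means and SD, circles the 21 libraries with lymph node and triangles the 8 low in B cell genes. Pecam1 in Obese lies at 13.53 to 13.70, above the other groups at 12.81 to 13.43, and MCR 2 is the low circle in MCR for Cdh5, Tek, Kdr, Flt1 and Esam.

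Taken as a list, 7 of the 10 genes were higher in Obese than in Control fat pads and none was lower: Pecam1, Cdh5, Esam, Tie1, Tek, Vwf and Egfl7. Of all 19387 tested genes, 9.44% were higher and 3.44% lower in this comparison. The members' median log2 difference was 0.62, against -0.03 for all genes. For 5 of them (Pecam1, Cdh5, Tie1, Egfl7 and Esam) every Obese library was above every Control library, which held for 6.32% of all genes. Obese had the highest group mean for the 7 genes that passed, and Control the lowest for Cdh5, Tie1, Tek, Kdr, Flt1, Esam and Emcn. Kdr and Flt1 had their highest mean in LFCR. Within sequencing lanes, of which 4 held both groups, 6 of the 10 differences had the pooled direction in each lane. Pecam1 ran from 0.22 to 0.64. The pooled direction comes from the same libraries and no share of all genes is given here, so this count is a description only. Without Obese 1 or without Obese 5 the count of members that passed was 4 in place of 7.

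For 9 of the 10 genes the Obese to Control difference was smaller in each of 3 fits that took lymph node content into account, while Pecam1 stayed at 0.40 to 0.41; the number that passed depended on the fit. In a fit without the 8 libraries that lack lymph node, Cdh5 (0.63, adjusted p = 0.00926) and Tie1 (0.51, adjusted p = 0.0193) passed, 2 of 10 members against 3.24% of all genes. The members' median there was 0.43. Glycam1 was still lower in its Obese libraries, 6241 to 8892.5, than in Control, 9330 to 20616, so that fit does not make lymph node content equal. With the mean B cell level as a covariate the same 7 genes passed, with a median of 0.44 and 10.4% of all genes called. With Glycam1 as the covariate 3 passed, Pecam1 (0.40), Cdh5 (0.51) and Tie1 (0.55), against 7.12% of all genes. Cdh5 and Tie1 passed in all 3 of these fits. Kdr was near 0 in each, at 0.06, 0.02 and -0.05. All Control libraries hold lymph node, so the difference between pads without it cannot be computed.

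Red blood cell genes moved with the same comparison. All 6 of them, among them the hemoglobin gene Hbb-bs and Alas2, the enzyme that starts heme synthesis in red cells, were higher in Obese than in Control, with a median log2 difference of 1.77. Their summed normalized counts were 19980.4 to 89220.5 in Obese libraries and 8759 to 12824 in Control libraries, with no overlap. Hbb-bs alone had 37466, 10834, 7742, 15107 and 19092 normalized counts in Obese libraries, against 3799, 3403, 4668, 5160.3 and 5076 in Control libraries. With the mean log2 level of the 6 genes as a covariate, 0 of the 10 members and 0.851% of all genes passed in limma between Obese and Control, and the members' median was 0.20. In that fit Pecam1 stood at 0.47, Cdh5 at 0.41 and Tie1 at 0.33. The 2 groups do not overlap in these genes, so the covariate and the group are hard to separate, and the part of blood content in the result was not tested further. In the same comparison 4 of 12 mature adipocyte genes were higher in Obese and 1 was lower, 4 of 12 luminal epithelial genes were lower, and 0 of 12 B cell and 0 of 10 T cell genes passed in limma (medians -2.33 and -2.09). Of all genes 9.44% were higher and 3.44% lower.

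**Figure D3:**
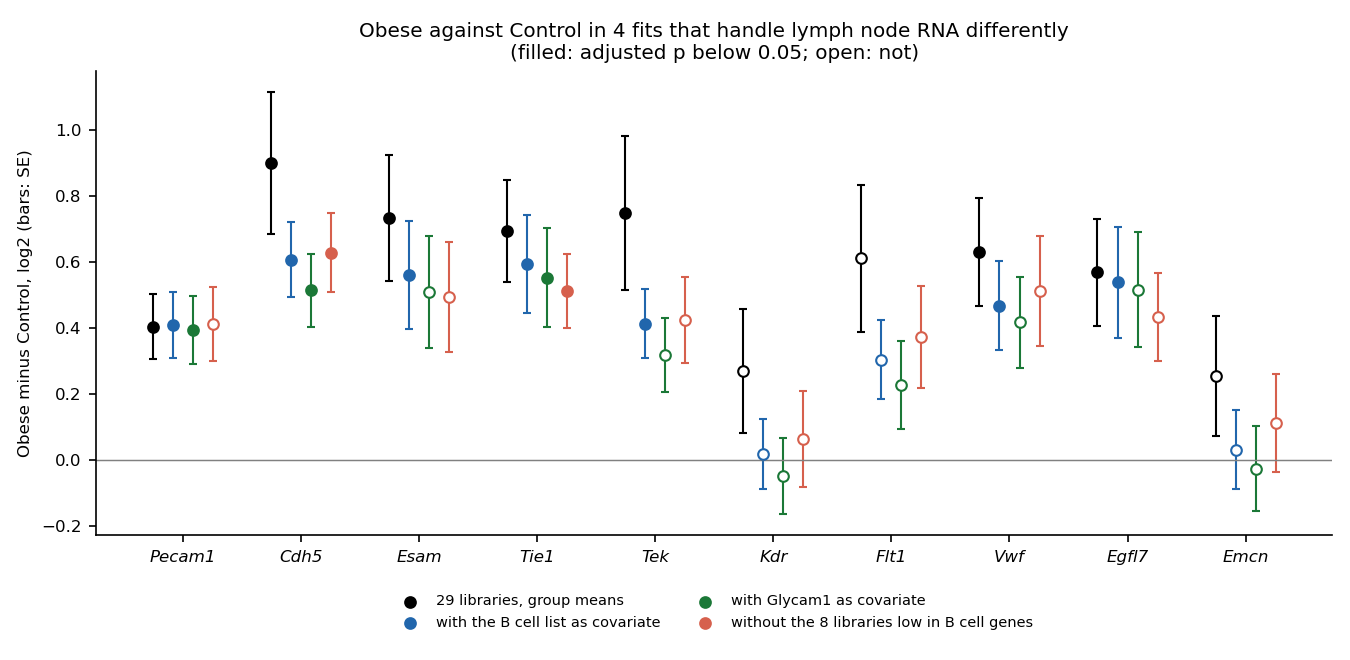
Log2 difference, Obese minus Control, of the 10 genes in 4 fits (all 29 libraries, with the B cell level as covariate, with Glycam1 as covariate, and without the 8 libraries low in B cell genes); bars are standard errors and filled points pass the threshold. Cdh5 and Tie1 are filled in all 4 fits, and the 7 genes filled in the fit of all libraries have values of 0.40 to 0.90 there.

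The 4 weight-loss diets were each set against the Obese group; these comparisons share the Obese libraries, so they are not independent of each other. In LFD 1 member (Pecam1) of 10 was lower, against 3.28% of all genes (5.98% in either direction), in LFCR 3 (Pecam1, Vwf and Egfl7) against 9.42% (21.4% in either direction), in MCR 2 (Pecam1 and Vwf) against 5.69% (12.4% in either direction), and in ICR 4 (Pecam1, Tie1, Egfl7 and Esam) against 5.23% (9.21% in either direction). No member was higher in any diet than in Obese in this fit, while 2.7%, 11.9%, 6.66% and 3.99% of all genes were in LFD, LFCR, MCR and ICR. The members' median difference was -0.36 for LFD, -0.35 for LFCR, -0.19 for MCR and -0.50 for ICR, against medians of all genes between -0.04 (LFCR) and 0.00 (ICR). Every diet library was below every Obese library for Pecam1 and Egfl7 in LFD (3.02% of all genes), Pecam1 and Vwf in LFCR (6.23%) and in MCR (4.56%), and Pecam1, Tie1, Egfl7 and Esam in ICR (4.52%). Pecam1 was lower than Obese within each sequencing lane shared by the 2 groups, in all 4 diets. The share of members lower than in Obese was above the background share in each diet, and in LFD it is a single gene.

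Single libraries moved these counts. Without Obese 4 the LFD count was 3 in place of 1, and without LFD 2 it was 2. Without Obese 5 or LFCR 1 the LFCR count was 1 in place of 3. Without MCR 2 Kdr was higher in MCR than in Obese (0.54). Without Obese 1 the ICR count was 1 in place of 4, and without Obese 5, ICR 3 or ICR 4 it was 2. The LFD call of Pecam1 did not pass in a fit of LFD and Obese libraries alone (adjusted p = 0.0754), after quantile normalization (0.0875) or with luminal epithelial genes as a covariate (0.43). In LFD pads 9 of 12 luminal epithelial genes were higher than in Obese pads, against 2.7% of all genes. With the B cell level as a covariate, 4 members were lower in LFD, 6 lower and 1 higher (Kdr) in LFCR, 4 lower in MCR, and 6 lower and 2 higher (Kdr and Emcn) in ICR. The background in those fits was 13%, 30.8%, 18.2% and 20.3% of all genes in either direction.

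Among the 21 libraries with lymph node alone, 1 member was lower in LFD than in Obese (Pecam1, -0.53, adjusted p = 0.0447), where 0.882% of all genes passed. In LFCR Pecam1 was lower (-0.65, adjusted p = 0.00328) and Kdr higher (0.48, adjusted p = 0.0469), with 18.6% of all genes called. The LFCR libraries there all had less Glycam1 (3678 to 6003) than the Obese ones (6241 to 8892.5), and its part in these differences was not tested within this fit. In ICR Pecam1 (-0.56), Tie1 (-0.42) and Egfl7 (-0.45) were lower, with 13.6% called. MCR has 1 library in that fit, whose spread is taken from the other groups. It was lower in Cdh5 (-0.996, adjusted p = 0.027), with 0.521% called.

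Set against Control, no member was lower in any diet group in the fit of all libraries. Pecam1 did pass as lower in LFCR than in Control after quantile normalization (-0.38, adjusted p = 0.0158), with luminal epithelial genes as a covariate (-0.28, adjusted p = 0.0373) and without Control 4 (-0.28, adjusted p = 0.0274), against -0.23 in the fit of all libraries. In LFD no member and no gene of the whole table passed in limma, nor in voom on the recovered reads; 2 members had an unadjusted p under 0.05. In LFCR 2 members were higher, Kdr and Flt1, against 20.1% of all genes (18% were lower, 38.1% passed in all), so their share was no larger than the background. Their libraries were all above Control, as were 12.2% of all genes. In MCR 3 were higher, Tek (0.69 ± 0.25, adjusted p = 0.0388), Kdr (0.57) and Egfl7 (0.52 ± 0.17, adjusted p = 0.0306), against 13.9% of all genes (15.7% were lower, 29.6% passed in all). In ICR 0 passed in limma and 0 in voom, 4 had an unadjusted p under 0.05, and 3.69% of all genes were higher and 0.882% lower (4.58% in all). All Tek libraries of LFD (1.16% of all genes) and all Flt1 libraries of ICR (4.62%) were above the Control ones. The members' median against Control was 0.29 for LFD, 0.38 for LFCR, 0.47 for MCR and 0.26 for ICR. No share of all genes is given for the counts with an unadjusted p under 0.05, so these are not read as results. The 4 comparisons of diets with Control and that of Obese share the Control libraries.

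The MCR result against Control did not hold with lymph node content taken into account: 3 of 4 MCR libraries lack it, and with the B cell level as a covariate 0 members passed in limma, with 0.645% of all genes called. Kdr was then 0.08 and Tek 0.03. The MCR count was also 0 without any 1 of MCR 1, MCR 3, MCR 4, Control 1 or Control 2, 1 without Control 5, and 7 without MCR 2. In LFCR, Kdr (0.43) and Flt1 (0.49) still passed with the B cell level as a covariate, with 22% of all genes called. In the libraries with lymph node alone, Tie1 (0.37), Kdr (0.54) and Flt1 (0.61) were higher in LFCR (25.4% of all genes). ICR and Control libraries all hold lymph node, and in the same fit 5 members were higher in ICR, Cdh5 (0.37), Tek (0.51), Kdr (0.45), Flt1 (0.63) and Emcn (0.46), with 24.3% of all genes called. The ICR and Control libraries are the same as in the fit of all 29, so the differences are unchanged and their standard errors smaller. Glycam1 was 2982 to 8430 in ICR and 3678 to 6003 in the LFCR libraries of that fit, against 9330 to 20616 in Control, without overlap. Lymph node content is thus not equal in either comparison, and its part in these differences was not tested within this fit. The LFCR count was 4 without LFCR 5 or without Control 3. With red blood cell genes or with adipocyte genes as a covariate, 0 members passed in LFCR against Control in limma. The list of 12 mature adipocyte genes was higher in LFCR than in Control in 12 of 12 members, against 20.1% of all genes.

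The 3 calorie-restricted diets together differed from LFD in 0 of 10 members by limma and 0 by voom, where 3.33% of all genes passed, 1.68% higher and 1.65% lower; 1 member, Kdr, had an unadjusted p under 0.05. Kdr stood at 0.48 ± 0.16 (adjusted p = 0.075), and passed without MCR 2 (adjusted p = 0.0148). Among the libraries with lymph node alone 0 members and 0.0206% of all genes passed in limma.

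**Figure D4:**
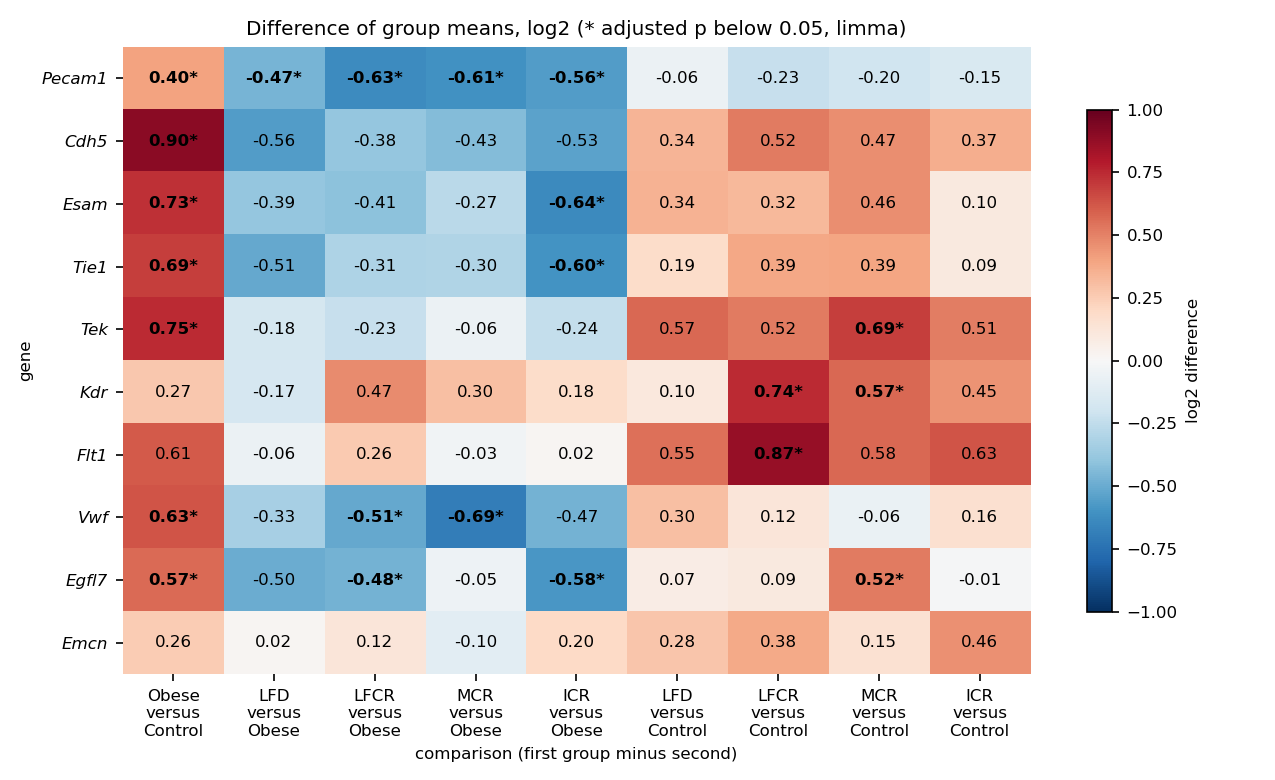
Grid of log2 differences of the 10 genes (in order down the page) in 9 comparisons (across), first group minus second; colour runs from blue (lower in the first group) to red (higher), and an asterisk marks an adjusted p below 0.05 in limma. Pecam1 carries an asterisk in all 4 diets against Obese, at -0.63 to -0.47, while Kdr and Flt1 do so in LFCR against Control, at 0.74 and 0.87.

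Paired receptors were also compared within each library, since a ratio of normalized counts of 2 genes does not move when both change in proportion. Flt1 counts per Kdr count were 0.792 to 0.963 in Obese libraries, against 0.565 to 0.771 in Control libraries, with no overlap. The ratio was 0.751 to 1.06 in LFD, 0.706 to 0.85 in LFCR, 0.594 to 0.745 in MCR and 0.704 to 0.822 in ICR libraries. In Obese pads, Flt1 relative to Kdr was thus at the high end, next to LFD. By a two-sided exact permutation test over libraries, with adjustment over 10 tests, Obese differed from Control by a log2 ratio of 0.34 (p = 0.00794, adjusted p = 0.0794), and this unadjusted p is the smallest that 5 against 5 libraries can give. LFCR differed from Obese by -0.21 (p = 0.0238, adjusted p = 0.0794), MCR by -0.34 (p = 0.0159, adjusted p = 0.0794), ICR by -0.16 (p = 0.0317, adjusted p = 0.0794) and LFD by 0.11 (p = 0.278, adjusted p = 0.347) in the same exact test. None of these passed after adjustment. Among libraries with lymph node alone the Flt1 to Kdr difference was 0.31 for Obese against Control. Against Obese it was 0.12 for LFD, -0.25 for LFCR, -0.51 for MCR (1 library) and -0.13 for ICR. Only 3 Obese libraries are left there, too few for the exact test to pass after adjustment, so it cannot decide on these differences.

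Tek counts per Tie1 count were 0.782 to 1.15 in Obese libraries, against 0.81 to 1.05 in Control libraries, which overlap almost fully. In the diets the ratio was 0.965 to 2.05 in LFD, 0.846 to 1.8 in LFCR, 0.84 to 1.44 in MCR and 0.977 to 1.44 in ICR. The log2 ratio differed by 0.06 (p = 0.651, adjusted p = 0.723) between Obese and Control in the exact permutation test. Against Obese it differed by 0.37 (p = 0.0556, adjusted p = 0.111) in ICR, 0.34 (p = 0.159, adjusted p = 0.265) in LFD, 0.25 (p = 0.206, adjusted p = 0.295) in MCR and 0.08 (p = 0.81, adjusted p = 0.81) in LFCR, by the same exact test. No difference passed. Among libraries with lymph node alone, the Tek to Tie1 difference turned to -0.09 for Obese against Control and to -0.08 for MCR (1 library) against Obese. It was 0.51 for ICR, 0.30 for LFD and 0.004 for LFCR against Obese. The exact test could not pass after adjustment with the 3 Obese libraries left there, so it cannot decide on these either. The lymph node term was -0.81 for Tek and -0.24 for Tie1, and a term for their ratio was not tested.

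**Figure D5:**
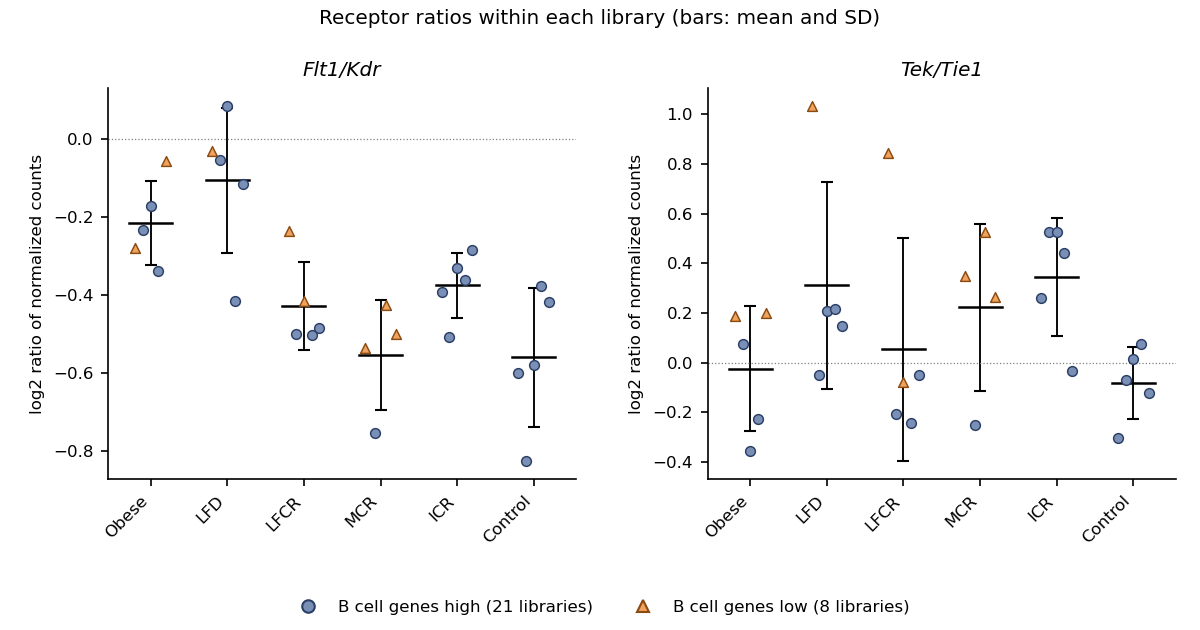
Log2 ratios of normalized counts in each library, Flt1 to Kdr on the left and Tek to Tie1 on the right, by group from Obese to Control; horizontal lines and error bars are means and SD, circles the 21 libraries with lymph node and triangles the 8 low in B cell genes. The Flt1 to Kdr log2 ratio of Obese, -0.34 to -0.05, lies above that of MCR, -0.75 to -0.42, and Control, -0.82 to -0.37.

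A wider list of vascular ligands, among them those of Kdr, Flt1 and Tek, did not move as a block. Of 13 vascular ligands tested, 5 were higher in Obese than in Control and 0 lower in limma: Apln (1.74 ± 0.27, adjusted p = 0.000259), Adm (1.48 ± 0.31, adjusted p = 0.00287), Dll4 (1.00 ± 0.21, adjusted p = 0.00364), Pdgfb (0.70 ± 0.18, adjusted p = 0.011) and Vegfc (0.61 ± 0.20, adjusted p = 0.039). Of all genes 9.44% were higher and 3.44% lower. Among these 5 only Vegfc is a ligand of a receptor above, Kdr. Vegfa and Angpt2, described below, did not pass in this comparison. Apln encodes apelin, a peptide of sprouting endothelium and adipocytes, and had 877, 426, 434, 294 and 749 normalized counts in Obese libraries, against 87.9, 135, 219, 86.7 and 200.2 in Control libraries. Every Obese library was above every Control library. Diet libraries had 141 to 169 in LFD, 91 to 245 in LFCR, 81.8 to 149 in MCR and 95.9 to 162 in ICR, all below Obese. Apln was lower than in Obese by -1.58 ± 0.27 (adjusted p = 0.00139) in LFD, -1.52 ± 0.27 (adjusted p = 0.000233) in LFCR, -2.005 ± 0.28 (adjusted p = 8.85e-05) in MCR and -1.79 ± 0.27 (adjusted p = 0.00015) in ICR. These Apln calls held in every fit without 1 library. Without the 8 libraries lacking lymph node Apln stood at 1.32 (adjusted p = 0.00952) for Obese against Control, and the ligand counts there were 3 higher and 0 lower. The Pdgfb call was lost without Obese 1 (0.0511), and the Vegfc call without Obese 1 (0.165), Obese 2 (0.0573), Obese 5 (0.104), Control 1 (0.0633), Control 4 (0.0769) or Control 5 (0.0992), adjusted p in brackets. With red blood cell genes as a covariate 0 of the 13 ligands passed in limma for Obese against Control. Of all genes 3.24% passed without the 8 libraries and 0.851% with this covariate.

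Angpt2, the angiopoietin released by activated endothelium, had 587, 521, 469, 539 and 629 normalized counts in Obese libraries, against 442, 556, 439, 308 and 313 in Control libraries, a difference of 0.42 ± 0.18 (adjusted p = 0.117). It was lower than Obese in all 4 diets, by -0.64 ± 0.18 (adjusted p = 0.0324) in LFD, -1.01 ± 0.18 (adjusted p = 0.000225) in LFCR, -0.87 ± 0.19 (adjusted p = 0.00367) in MCR and -1.02 ± 0.18 (adjusted p = 0.000718) in ICR. Angpt1, the activating ligand of Tek made by perivascular and stromal cells, went the other way: it had 926 to 2084 normalized counts in LFCR, 783 to 1987 in MCR and 540.0 to 1541 in ICR libraries, against 258 to 664 in Obese libraries. It was higher than in Obese by 1.77 ± 0.28 (adjusted p = 9.69e-05) in LFCR, 1.83 ± 0.30 (adjusted p = 0.000376) in MCR and 1.13 ± 0.28 (adjusted p = 0.0123) in ICR, with 0.66 ± 0.28 (adjusted p = 0.184) in LFD. The LFD call of Angpt2 was lost without Obese 1 (0.0763), Obese 2 (0.0552), Obese 5 (0.079), LFD 3 (0.0758), LFD 4 (0.0895) or LFD 5 (0.0946), adjusted p in brackets. In the fit of libraries with lymph node alone, Angpt2 was lower in LFCR (-0.94) and ICR (-0.92) and Angpt1 higher in LFCR (1.82) and ICR (1.47), all past the threshold.

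Vegfa, the ligand of Kdr and Flt1 that adipocytes make in quantity, had 15554, 11107, 13042, 9702 and 8151 normalized counts in LFCR and 12128, 6520.4, 12038 and 11267 in MCR libraries, against 7296, 4967, 3927, 4642 and 8276 in Obese libraries. LFCR was above Obese by 1.00 ± 0.23 (adjusted p = 0.0024), MCR by 0.86 ± 0.24 (adjusted p = 0.0202) and ICR, short of the threshold, by 0.70 ± 0.23 (adjusted p = 0.0518); LFD stood at 0.24 ± 0.23 (adjusted p = 0.645). Obese and Control differed by 0.36 ± 0.23 (adjusted p = 0.291), and LFCR and Control by 1.36 ± 0.23 (adjusted p = 0.000444). The MCR call of Vegfa was lost without Obese 2 (0.0516), Obese 3 (0.062), MCR 1 (0.0822), MCR 3 (0.0792) or MCR 4 (0.0558), and ICR passed without Obese 1 (0.0466) or Obese 5 (0.0267). Vegfb, a ligand of Flt1, was higher than Obese in LFCR (1.13 ± 0.21, adjusted p = 0.000413), MCR (0.94 ± 0.22, adjusted p = 0.00673) and ICR (0.72 ± 0.21, adjusted p = 0.0324), where the last was lost without Obese 2 (0.105), Obese 3 (0.055), Obese 4 (0.056), ICR 1 (0.0564), ICR 2 (0.0691) or ICR 4 (0.0933). Vegfc, a ligand of the lymphatic receptor Flt4 and of Kdr, was lower than Obese in all 4 diets, by -0.70 for LFD, -0.74 for LFCR, -0.64 for MCR and -0.94 for ICR. The LFD call was lost without Obese 1 (0.118), Obese 2 (0.0624), Obese 5 (0.0774), LFD 3 (0.0864), LFD 4 (0.0917) or LFD 5 (0.1), and the MCR call without Obese 1 (0.115), Obese 2 (0.0745), Obese 5 (0.0755), MCR 1 (0.0853), MCR 2 (0.0523) or MCR 3 (0.138). In all, 0 ligands were higher and 4 lower than Obese in LFD, 3 and 5 in LFCR, 3 and 5 in MCR, and 2 and 6 in ICR. Of all genes 2.7%, 11.9%, 6.66% and 3.99% were higher than Obese in LFD, LFCR, MCR and ICR. The shares lower were 3.28%, 9.42%, 5.69% and 5.23%. Mature adipocyte genes moved alongside: of 12, 2 were higher than Obese for LFD, 7 for LFCR, 4 for MCR and 3 for ICR, and their part in the ligand changes was not tested.

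Other endothelial lists showed how far the 10 genes stand for the tissue's endothelium. Of 26 further pan-endothelial genes, 17 were higher in Obese than in Control and 0 lower in limma, with a median of 0.66. Of all genes 9.44% were higher and 3.44% lower. The smallest adjusted p were those of Ramp2 (0.78 ± 0.13, adjusted p = 0.000626), She (0.84 ± 0.16, adjusted p = 0.00148), Sox7 (1.24 ± 0.24, adjusted p = 0.00174) and Mmrn2 (0.69 ± 0.13, adjusted p = 0.00188). Without the 8 libraries lacking lymph node 9 of the 26 were higher in Obese, with the B cell level as a covariate 16, and with red blood cell genes as a covariate 0, in limma. In those fits 3.24%, 10.4% and 0.851% of all genes passed in either direction. Against Obese, 2 of the 26 were lower for LFD, 10 for LFCR, 9 for MCR and 7 for ICR. The shares of all genes lower than Obese were 3.28%, 9.42%, 5.69% and 5.23%. Of 12 vascular receptors and partners, 9 were higher in Obese than in Control, led by Acvrl1 (0.55), Notch4 (0.86), Nrp2 (0.56) and Ephb4 (0.63); 5 were lower than Obese for LFD, 5 for LFCR, 4 for MCR and 4 for ICR. Ramp2 is the coreceptor for adrenomedullin, Acvrl1 a BMP receptor of endothelium, Notch4 an endothelial Notch receptor, Nrp2 a VEGF coreceptor and Ephb4 the venous ephrin receptor. The Ephb4 call was lost without Obese 1 (0.0511). Of these 12, 2 were higher in Obese without the 8 libraries. These lists were chosen with earlier results of the same libraries known.

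By vessel type, 7 of 10 arterial genes were higher in Obese than in Control, among them the elastic fibre protein Fbln5 (1.94 ± 0.30, adjusted p = 0.000233), the connexin Gja5 (1.38 ± 0.25, adjusted p = 0.00112) and Sema3g (1.29 ± 0.24, adjusted p = 0.00153). Without the 8 libraries the arterial count was 4, and the venous, capillary and tip cell counts, 4, 4 and 5 with all libraries, were 2, 1 and 4. Of all genes 9.44% were higher with all libraries, and 3.24% passed in either direction without the 8. Ephb4, Aplnr, Apln and Dll4 are also on the receptor or ligand lists, so the lists do not count separate results. Of 7 venous genes 4 were higher, Ackr1 (0.60), Selp (0.96), Ephb4 and Aplnr (1.25). Of 7 capillary genes 4 were higher, Gpihbp1 (1.19), Aqp7 (1.10), Timp4 (1.76) and Sparcl1 (0.88). Gpihbp1 carries lipoprotein lipase onto capillaries and Aqp7 transports glycerol. Aqp7, Timp4 and others of this list are made by adipocytes too. Of 12 tip cell and sprouting genes 5 were higher, among them Apln, Dll4 and the basement membrane collagens Col4a1 (0.99) and Col4a2 (1.35), and 4, 4, 2 and 4 were lower than Obese in LFD, LFCR, MCR and ICR. The shares of all genes lower than Obese were 3.28%, 9.42%, 5.69% and 5.23%. None of the 7 capillary genes passed between any diet and Obese, while 6 of 7 were higher in LFCR than in Control, as were 20.1% of all genes. All 7 capillary genes fell in libraries with lymph node, as 13 of the 26 other pan-endothelial genes did (3 rose). Of all genes 24.7% fell and 24.9% rose there.

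No lymphatic or high endothelial venule gene passed with obesity in either direction: 0 of 7 lymphatic genes (median -0.38) and 0 of 6 venule genes (median -0.91) passed between Obese and Control in limma. With lymph node in the pad, 5 of 6 venule genes rose and 1 fell, and 3 of 7 lymphatic genes rose, where 24.9% of all genes rose and 24.7% fell. Lymphatic Prox1 had 36.1 to 599 normalized counts in Obese libraries, against 307 to 1096 in Control libraries, with medians of 498 and 500. All Control libraries hold lymph node, while Obese 1 and 5 do not. Of 13 pericyte and smooth muscle genes, which mark the cells that wrap vessels, 4 were higher in Obese, Mcam (1.19), Pdgfrb (0.76), Kcnj8 (0.79) and Abcc9 (0.45). Of all genes 9.44% were higher in Obese. Mcam is on endothelium as well.

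Pecam1 and Esam are also made by leukocytes or platelets, so markers of these were read beside them. Of 10 macrophage genes 2 were higher in Obese than in Control, Adgre1 (0.92) and Cd68 (0.87), and their summed normalized counts were 37085 to 47121 in Obese libraries and 30849 to 67469.7 in Control libraries. Against Obese 1 was lower for LFD, 6 for LFCR, 4 for MCR and 4 for ICR, with summed counts of 30109 to 37829, 11988 to 35314, 16700.0 to 32514 and 29455 to 35917. By comparison, 9.44% of all genes were higher in Obese than in Control. The shares of all genes lower than Obese were 3.28%, 9.42%, 5.69% and 5.23% for LFD, LFCR, MCR and ICR. Pecam1 fell in the same 4 groups, and the part of macrophage RNA in that was not tested. Platelet genes were scarce: of 8, 5 passed the filter on low values, Gp9 had at most 11.5 normalized counts in any library, and Pf4, the 1 that was higher in Obese (1.24), is made by macrophages as well.

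Within groups, the 10 genes did not vary as a single block. Each library's values were set relative to its group mean, and each gene was correlated with the mean of the other 9; these are descriptions over libraries that share depth and tissue content. Since the libraries with and without lymph node form separate sets, the correlations were taken over the 20 libraries with it in the 5 groups that have at least 2 such libraries. Tek followed the other members most closely there (Pearson r = 0.82), then Flt1 (0.76), Esam (0.66), Kdr (0.64) and Tie1 (0.59). Cdh5 (0.32), Emcn (0.22), Vwf (0.17) and Egfl7 (0.10) followed it weakly. Pecam1 ran against it (-0.56). The closest pair was Kdr and Flt1 (0.79) and the most opposed Pecam1 and Vwf (-0.68).

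Even among these libraries, more Glycam1 went with lower Tek (r = -0.76), Kdr (-0.76), Esam (-0.66) and Flt1 (-0.61), and with higher Pecam1 (0.62). Not all other pairs moved together either: Egfl7 and Emcn stood at r = -0.58 and Cdh5 and Vwf at -0.50, while Pecam1 and Cdh5 stood at 0.21. Of 14694 other genes with a mean of at least 50 normalized counts, the 10 whose values most resembled the members' mean within groups over all 29 libraries were Ptprb, Arhgef12, Cpd, Kcnc2, Afap1l1, Dip2a, Mmrn2, Ablim3, Luzp1 and Wdsub1, at r of 0.93 to 0.94. Over the 20 libraries with lymph node, Wdsub1 (0.91), Ptprb (0.90) and Dip2a (0.87) had the highest r of these 10, and Mmrn2 the lowest (0.63). Wdsub1, Ptprb and Dip2a ranked 2, 5 and 27 among all genes there, and the others from 107 (Arhgef12) to 1498 (Mmrn2). Most of the 10 were thus not among the closest genes in those libraries. Ptprb, the endothelial phosphatase that acts on Tek, and Mmrn2, an endothelial matrix protein, were on the list of other pan-endothelial genes.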

How the data were processed

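RNA from 29 mammary fat pads was extracted with TRIzol, made into libraries with the TruSeq Stranded Total RNA kit and read in pairs of 76 bases on a HiSeq 2000, per the labels' protocols. The submitters' processing notes name TopHat2 2.0.7, HTSeq 0.5.3p9, DESeq2 and build mm10, with no role or order. The authors deposited 1 table of log2 values per gene and library. Its scale was inferred from the values to be a variance-stabilising one; inverting it gave whole reads for 100% of values in every library (tolerance 0.01 reads), and normalized counts from these.

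Because the deposited unit is log2, the main test was limma 3.58.1 (R 4.3.3; trend and robust) over all 29 libraries with 1 mean per group. It covered 19387 of 30818 genes, those with at least 10 normalized counts in at least 4 libraries, all 10 members among them. P-values were adjusted by Benjamini-Hochberg over all genes tested, with a threshold of 0.05. Receptor ratios were compared by exact permutation tests (scipy 1.17.1). Groups came from the treatment label and lanes from the column names; replicate numbers follow sample order and pair nothing. Replicates of a group correlated at r of 0.962 to 0.995, and no pair differed by as little as sampling noise. Libraries were called free of lymph node where 12 B cell genes averaged under 9 on the log2 scale. On simulated data with 200 changed genes, limma recovered 56% of 2-fold and 100% of 4-fold changes, and 6.02% of its calls were false. The simulated counts were independent, with the same dispersion for every gene and no differences in lymph node or tissue content. Those rates may therefore not hold for these libraries. The largest Obese to Control difference of the 10 genes was 1.87-fold (Cdh5), below 2-fold. A gene that did not pass may therefore still differ.

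The members, the other lists, the value of 9 and the tests were chosen with earlier results of these data known. Every member is described; from each other list the text gives counts and up to 4 genes with the smallest adjusted p in Obese against Control, with Glycam1, Vegfa and Angpt2 besides. Vegfc, Angpt1, Vegfb and Gp9 were named after their values were seen. Alternatives were other filters, log2(normalized count + 1), quantile normalization, voom (limma) on whole reads, fits of the compared groups alone, library weights, lymph node, lane and tissue covariates, and leaving out each library.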

Additional observations from a re-analysis of the deposited data

Results flagged for a closer look

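Dixon's test at the 95% level was applied to the highest and lowest library of each gene in each group of 4 or 5, 66 gene and group sets in all, and 7 stood out; chance flags about 1 in 20 such sets. In 5 of them the library is MCR 2, the MCR library that holds lymph node RNA. It was the lowest of the 4 MCR libraries in Cdh5 (log2 value 12.16, 4550.0 normalized counts), Tek (10.17, 1127 normalized counts), Kdr (11.96, 3959 normalized counts), Flt1 (11.22, 2352 normalized counts) and Esam (10.41, 1330.0 normalized counts). The other 3 MCR libraries hold no lymph node. MCR 2 also has the fewest reads of all 29 libraries, 16403903, but low depth is shared by the 5 libraries of its lane, at up to 18212783 reads. The other 2 are in LFD 1, the LFD library without lymph node, which was the highest of 5 in Tek (11.56, 2989 normalized counts) and the lowest of 5 in Glycam1 (4.824, 7.79 normalized counts). In both libraries lymph node content differs from that of the rest of the group, and the cause of each value was not tested further.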

How the results depend on the processing

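Counts here are of the 10 endothelial genes that passed in limma, with the share of all genes that passed in the same fit in brackets; where that share is large, a count is no result about these genes. For Obese against Control, 7 passed (12.9%), 2 without the 8 libraries low in B cell genes (3.24%), 3 with Glycam1 as a covariate (7.12%) and 0 with red blood cell genes (0.851%); leaving out 1 library gave 4 to 8. For LFD against Obese, 1 passed (5.98%), 2 among genes averaging at least 50 normalized counts (7.16%), 0 after quantile normalization (5.11%), 0 in a fit of the groups compared alone (0.722%), 0 with luminal genes (0.0619%), 4 with library weights (19.3%), 4 with the B cell covariate (13%), 3 with Glycam1 (13%) and 6 with adipocyte genes (15.9%); leaving out 1 library gave 1 to 3. For LFCR against Obese, 3 passed (21.4%), 5 with library weights (1 higher and 4 lower, 39.8%), 7 with the B cell covariate (1 higher and 6 lower, 30.8%), 7 with adipocyte genes (18%) and 6 with Glycam1 (1 higher and 5 lower, 32.3%); leaving out 1 library gave 1 to 4. For MCR against Obese, 2 passed (12.4%), 1 in a fit of the groups compared alone (5.85%), 1 without the 8 libraries (0.521%), 4 with the B cell covariate (18.2%), 4 with Glycam1 (17.7%) and 6 with adipocyte genes (10.4%). With library weights 5 passed there (50.9%), 3 higher and 2 lower, and the members' median was 0.10 in place of -0.19; leaving out 1 library gave 2 to 3. For ICR against Obese, 4 passed (9.21%), 8 with the B cell covariate (2 higher and 6 lower, 20.3%), 8 with adipocyte genes (27.2%), 7 with Glycam1 (2 higher and 5 lower, 21.3%) and 1 with red blood cell genes (11.2%); leaving out 1 library gave 1 to 4. For LFCR against Control, 2 passed (38.1%), 4 in a fit of the groups compared alone (34.7%), 4 with luminal genes (3 higher and 1 lower, 43.5%), 0 with red blood cell genes (2.29%) and 0 with adipocyte genes (0.0103%); leaving out 1 library gave 2 to 4. For MCR against Control, 3 passed (29.6%), 1 with no filter (14.3%), 7 with library weights (55.6%), and 0 in a fit of the groups compared alone, without the 8 libraries, and with B cell, Glycam1, red blood cell or adipocyte covariates (at most 0.645%); leaving out 1 library gave 0 to 7. For ICR against Control, 0 passed (4.58%), 3 with library weights (19.2%), 5 without the 8 libraries (24.3%), 4 with the B cell covariate (11.1%), 2 with Glycam1 (8.41%) and 1 with lane as a term (6.57%); leaving out 1 library gave 0 to 0. For the calorie-restricted diets against LFD, 0 passed (3.33%), and 1 with library weights (22.1%), the B cell covariate (7.29%) or Glycam1 (6.8%); leaving out 1 library gave 0 to 1. The lymph node term (7, or 5 to 8 without 1 library) and LFD against Control (0, and 0 to 0) stayed within 1.5 times of their count in each alternative.

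Of 1079 single log2 differences recomputed under the alternatives other than leaving out 1 library (all against Obese or in Obese against Control, and others that passed in at least 1 fit), 60 changed direction, and in 7 of these the difference passed in the fit of all libraries or in the alternative. Those 7 were Tek (0.43) and Flt1 (0.38) in MCR against Obese with library weights, Flt1 with adipocyte genes in ICR against Obese (-0.51) and LFCR against Control (-0.029), and in MCR against Control Tek (-0.31) and Kdr (-0.13) without the 8 libraries and Tek with Glycam1 (-0.034). The rest passed in neither fit. Without the 8 libraries they were Cdh5 (-0.37), Flt1 (-0.32), Esam (-0.21) and Tie1 (-0.15) in MCR against Control, Kdr in MCR (-0.20), Tek in ICR (0.090) and Tek (0.023), Flt1 (0.067) and Emcn (-0.00081) in LFD against Obese; the Tek to Tie1 ratio turned too, in MCR against Obese (-0.083) and Obese against Control (-0.088). With the B cell covariate they were Cdh5 (-0.11) and Flt1 (-0.026) in MCR against Control and Flt1 (0.017) in LFD against Obese. With Glycam1 they were Cdh5 (-0.18) and Flt1 (-0.071) in MCR against Control, Kdr (-0.048) and Emcn (-0.026) in Obese against Control, and Tek in ICR (0.030) and Flt1 in LFD (0.082) against Obese. With library weights they were Esam (0.080), Egfl7 (0.13) and Emcn (0.16) in MCR against Obese, and with lane as a term Egfl7 there (0.013). With red blood cell genes they were Kdr (-0.13) and Emcn (-0.0093) in Obese against Control, Esam in MCR against Control (-0.027), Egfl7 (0.017), Tek (0.060) and Flt1 (0.064) in MCR against Obese, and Tek (0.016) and Flt1 (0.11) in LFD against Obese. With luminal genes they were Flt1 in ICR (-0.060) and Emcn in LFD (-0.24) against Obese, and after quantile normalization Flt1 in LFD against Obese (0.044) and Pecam1 with lymph node (0.16). With adipocyte genes they were Tek (-0.35), Cdh5 (-0.15), Tie1 (-0.067), Emcn (-0.035) and Pecam1 (0.012) in LFCR against Control, Flt1 (-0.13), Esam (-0.091) and Cdh5 (-0.055) in MCR against Control, and Tek (-0.15), Cdh5 (-0.15), Kdr (-0.084) and Flt1 (-0.062) in ICR against Control. Against Obese that covariate turned Kdr (-0.23) and Emcn (-0.038) in ICR, Flt1 (-0.47), Emcn (-0.21) and Kdr (-0.093) in LFCR, Kdr in MCR (-0.12) and Emcn in LFD (-0.11). Of 431 other values, of differences that passed in no fit, 63 changed direction. Leaving out 1 library changed the direction against Obese for Tek (-0.20 to 0.28), Flt1 (-0.15 to 0.27), Egfl7 (-0.11 to 0.065) and Emcn (-0.19 to 0.072) in MCR, Flt1 (-0.17 to 0.040) and Emcn (-0.14 to 0.13) in LFD and Flt1 in ICR (-0.070 to 0.12), for the Tek to Tie1 ratio in LFCR (-0.12 to 0.15), and for Pecam1 with lymph node (-0.076 to 0.038). The cause of these shifts was not tested.

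Pecam1 was lower in all 4 diets than in Obese in each alternative run, though it did not pass in all of them. No paired analysis was possible because replicate numbers follow sample order and mark no shared animal or day. These genes had at least 299 reads in each library.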
